A study of Mus musculus with 12 samples.

Results

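The regions described here carried a peak of H3K36ac, acetylation of lysine 36 of histone H3, in 2 or 3 of 3 LysM-Cre liver tumours and in 0 of 3 Trem2-MKO tumours. Members were chosen by the peak calls themselves: peaks of the 6 deposited lists on chromosomes 1 to 19 that shared at least 1 bp were joined, and 1689 of 103935 union regions (1.63%) met this rule. A peak in 3 of 3 LysM-Cre libraries was found at 52 of them (0.0500% of the union regions), and 1637 had a peak in 2 of 3. All mice had hepatocellular carcinoma and received anti-PD-1, an antibody against a receptor that restrains T cells, so no untreated group was compared. LysM-Cre mice carry Cre recombinase driven from the lysozyme M locus, which is active in macrophages, monocytes and neutrophils. Trem2-MKO mice lack Trem2, a lipid-sensing receptor of macrophages, in the myeloid lineage (genotype spelled TREM2-MKO in the labels). Each genotype had 3 immunoprecipitated tumour libraries with a peak list; the 6 input libraries were not used here. Age, strain and sex were not used, and the labels do not say whether a library came from 1 mouse or from several.

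H3K36ac is laid down by histone acetyltransferases and is known mainly from nucleosomes near the start of active genes. Methylation of the same lysine marks the bodies of transcribed genes, and a single lysine cannot carry both. Whole tumour was ground, so chromatin of tumour, stromal and immune cells was mixed in each library, and fewer cells of a type and less mark per cell cannot be told apart. The rule used all 6 libraries. The number of regions, their peak strength and their absence from Trem2-MKO lists are therefore descriptions, and only position and sequence, which the rule did not use, were compared.

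Sequences before the starts of 6 genes with a recurrent region over a start are printed below. The sequence before the start of Fgg, a hepatocyte gene, is set beside them because it holds few CG dinucleotides. Fgg had a recurrent region over its start too. The printed bases are not the regions themselves, and all summits at Psmd1, Kif22 and Fkbp6 lay downstream of them. Some summits at Pik3r4, Arpc2, Lgals3 and Fgg also lay outside them. Shown are the 250 bases before the annotated start on the gene's strand, 5′ to 3′, from RefSeq (GRCm38.p6), with CG dinucleotides in capitals.

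Psmd1: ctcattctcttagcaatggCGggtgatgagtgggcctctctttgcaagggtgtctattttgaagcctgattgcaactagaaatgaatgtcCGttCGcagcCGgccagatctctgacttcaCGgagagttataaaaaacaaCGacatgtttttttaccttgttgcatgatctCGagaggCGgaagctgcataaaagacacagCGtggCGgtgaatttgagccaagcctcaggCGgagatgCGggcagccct
Arpc2: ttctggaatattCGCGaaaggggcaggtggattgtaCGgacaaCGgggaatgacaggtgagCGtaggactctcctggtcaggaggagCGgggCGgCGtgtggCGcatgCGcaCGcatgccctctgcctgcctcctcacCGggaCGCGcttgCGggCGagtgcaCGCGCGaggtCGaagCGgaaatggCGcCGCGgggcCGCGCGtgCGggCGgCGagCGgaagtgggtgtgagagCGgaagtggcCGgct
Pik3r4: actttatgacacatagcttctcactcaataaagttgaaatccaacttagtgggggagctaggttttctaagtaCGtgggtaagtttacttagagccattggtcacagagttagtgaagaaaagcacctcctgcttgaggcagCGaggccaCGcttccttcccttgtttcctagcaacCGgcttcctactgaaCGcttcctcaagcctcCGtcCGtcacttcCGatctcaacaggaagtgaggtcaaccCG
Fkbp6: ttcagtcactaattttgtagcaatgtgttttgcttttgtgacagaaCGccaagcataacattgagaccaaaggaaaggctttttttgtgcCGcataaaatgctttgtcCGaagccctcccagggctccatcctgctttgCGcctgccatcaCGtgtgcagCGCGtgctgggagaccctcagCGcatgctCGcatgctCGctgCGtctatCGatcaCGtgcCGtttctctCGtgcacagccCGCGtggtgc
Lgals3: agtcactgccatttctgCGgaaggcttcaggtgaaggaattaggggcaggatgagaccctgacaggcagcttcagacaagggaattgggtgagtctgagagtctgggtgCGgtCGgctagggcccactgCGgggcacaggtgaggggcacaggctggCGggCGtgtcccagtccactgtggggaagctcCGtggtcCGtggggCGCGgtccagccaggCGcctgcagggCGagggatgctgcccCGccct
Kif22: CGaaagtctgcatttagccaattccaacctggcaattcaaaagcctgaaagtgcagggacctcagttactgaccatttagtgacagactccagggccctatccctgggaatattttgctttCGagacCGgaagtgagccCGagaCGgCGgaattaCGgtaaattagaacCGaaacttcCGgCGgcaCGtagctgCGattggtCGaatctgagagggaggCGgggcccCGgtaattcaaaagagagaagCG
Fgg: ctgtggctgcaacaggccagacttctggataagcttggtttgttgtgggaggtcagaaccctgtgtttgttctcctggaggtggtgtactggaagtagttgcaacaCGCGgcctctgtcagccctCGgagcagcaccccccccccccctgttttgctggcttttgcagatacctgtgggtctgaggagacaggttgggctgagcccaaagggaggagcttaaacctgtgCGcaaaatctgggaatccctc

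The windows lie at chr1:86064369-86064618 (Psmd1, plus strand), chr1:74236267-74236516 (Arpc2, plus), chr9:105642745-105642994 (Pik3r4, plus), chr5:135350045-135350294 (Fkbp6, minus), chr14:47373610-47373859 (Lgals3, plus), chr7:127042421-127042670 (Kif22, minus) and chr3:83007474-83007723 (Fgg, plus). They hold 12 CG dinucleotides for Psmd1, 33 for Arpc2, 9 for Pik3r4, 17 for Fkbp6, 13 for Lgals3, 16 for Kif22 and 4 for Fgg. Psmd1, Arpc2, Pik3r4 and Fkbp6 are the genes of the promoter table, which holds 79.6% of protein-coding genes, whose start window was overlapped by a region of 3 of 3 libraries. Lgals3 and Kif22 had the strongest regions of 2 of 3 libraries at a gene end.

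Psmd1 encodes a scaffold subunit of the 19S particle that feeds proteins to the proteasome. Its region (chromosome 1, 86064063 to 86065099, mm10) had folds over local background of 5.12, 4.86 and 4.18 in LysM-Cre replicates 1, 2 and 3, the authors' values for the single peaks. The 3 summits lay 166, 290 and 216 bp downstream of the annotated start, and 22, 22 and 20 fragments were stacked at them. The 3 libraries thus placed their summits within 124 bp of each other, on the transcribed side. The nearest Trem2-MKO summit was 34.7 kb away.

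Arpc2 encodes a core subunit of the Arp2/3 complex, which nucleates branched actin filaments. Its region (chromosome 1, 74236247 to 74237131) had folds of 4.19, 4.39 and 3.14 in replicates 1, 2 and 3, with 30, 29 and 22 fragments at the summits. These summits lay -33, 6 and -68 bp from the start, so that they sat on it in all 3 libraries. A Trem2-MKO summit lay 8.62 kb away.

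Pik3r4 encodes a regulatory partner of the class III PI3-kinase, which acts in autophagy and endosome traffic. Its region (chromosome 9, 105642920 to 105643469) had folds of 4.10, 3.24 and 4.43, with summits 293, -18 and 157 bp from the start. Fkbp6, an immunophilin-family gene known for its role in meiosis, had folds of 3.22, 4.05 and 4.13 (chromosome 5, 135349501 to 135350302). That region lay over 2 of its listed starts inside the annotated gene and not within 1 kb of either gene end. The 4 starts shared by the 3 LysM-Cre libraries had only 10 to 30 fragments at each summit, so each call rests on few fragments.

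The other regions of 3 of 3 libraries at a gene end lay at the far end of a gene or at a gene whose strand was not in the promoter table. At the far end of Crybb3, a lens crystallin gene, folds were 4.86, 4.22 and 3.09 (chromosome 5, 113075678 to 113076285). Chst15, a chondroitin sulfotransferase gene, had 3.34, 2.96 and 3.35 at its far end (chromosome 7, 132236170 to 132236645), with the 3 summits within 45 bp. The region at Nsmf, which also reached the far end of the phospholipase gene Pnpla7, had 4.05, 6.96 and 3.00 (chromosome 2, 25054254 to 25054787). Zfp354a, a zinc-finger gene, had 4.39, 2.75 and 4.32 (chromosome 11, 51058791 to 51059606). In all, 7 of the 52 regions reached within 1 kb of a gene end.

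**Figure D1:**
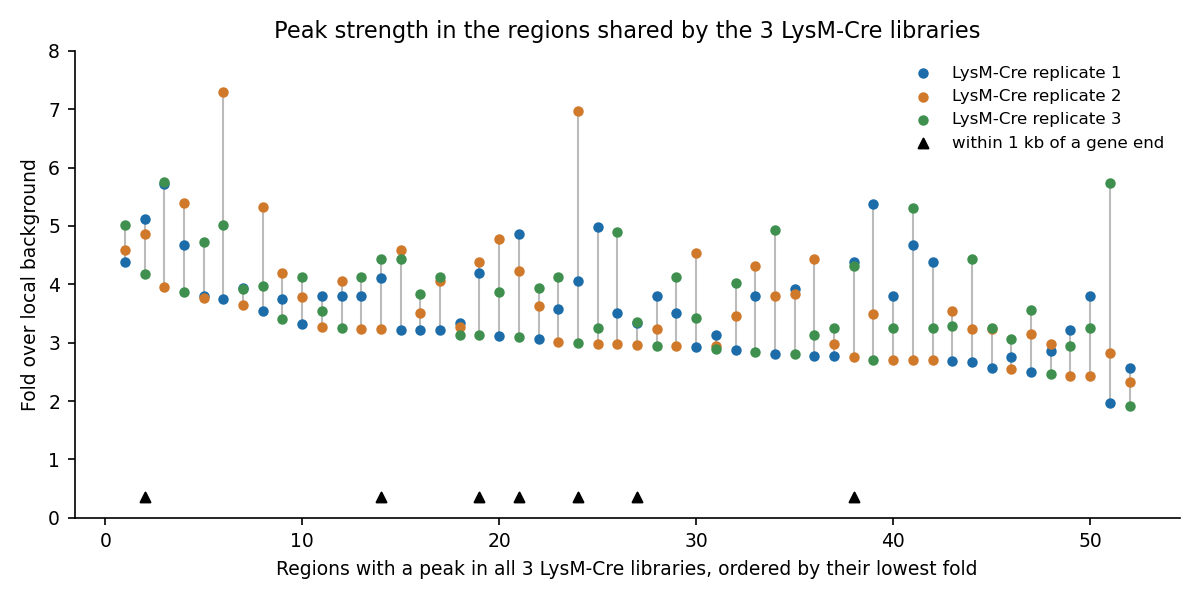
Fold over local background (vertical axis, the authors' value per peak) in LysM-Cre replicates 1, 2 and 3 for the 52 regions with a peak in all of them (horizontal axis, ordered by the lowest of the 3 folds). Each dot is a library, grey lines join the lowest and highest, and triangles mark the 7 regions within 1 kb of a gene end. The lowest of the 3 folds ran from 1.91 to 4.39.

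Most of the strongest regions shared by the 3 LysM-Cre libraries lay away from gene ends. The region with the highest lowest fold was 28.5 kb from Zfp951 (chromosome 5, 104773083 to 104773704; folds of 4.39, 4.59 and 5.02 in replicates 1, 2 and 3). A region 26.8 kb from Hhex, a homeobox gene needed for liver formation, had 3.55, 5.33 and 3.97 (chromosome 19, 37467536 to 37467946). On the same chromosome, folds were 3.94, 3.65 and 3.92 at a region 15.8 kb from Rcl1, a gene of ribosomal RNA processing (29159661 to 29160288). A region 8.43 kb from Scd2, a fatty acid desaturase gene, had 3.32, 3.78 and 4.13 (chromosome 19, 44315290 to 44316398).

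Other regions among the 10 strongest were near genes of varied kinds. A region 6.24 kb from Spp2, whose product the liver secretes, had the widest range among these, 3.74, 7.30 and 5.02, with 18, 39 and 30 fragments (chromosome 1, 88400174 to 88400725). An olfactory receptor gene, Olfr1182, lay 4.84 kb from a region with 3.80, 3.76 and 4.72 (chromosome 2, 88440563 to 88441182). Regions 484 kb from Dusp26 (chromosome 8, 30604367 to 30605118; 4.68, 5.40 and 3.87) and far from Pcdh10 (chromosome 3, 45914280 to 45915088; 5.72, 3.95 and 5.76) lay in gene-poor sequence. Only Psmd1 of these 10 was at a gene end.

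Among regions of 2 of 3 libraries, Lgals3 led those at gene ends. Lgals3 encodes galectin-3, a sugar-binding protein of activated and lipid-associated macrophages and of tumour cells. Folds were 4.86 in replicate 2 and 5.61 in replicate 3 (chromosome 14, 47373605 to 47374168), with 17 and 18 fragments and summits -72 and 35 bp from the start. Replicate 1 had no peak there, and the nearest Trem2-MKO summit was 17.4 kb away. The region covered the start in both libraries that had it.

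The next strongest regions of 2 of 3 libraries at gene ends were as follows. Kif22, a mitotic kinesin gene, had 4.39 and 4.59 in replicates 1 and 2 (chromosome 7, 127041982 to 127042508), with summits 192 and 198 bp downstream of the start. H2ac18, a histone H2A gene, had 4.32 and 4.43 in replicates 2 and 3 (chromosome 3, 96245113 to 96245549). A region over the start of Taf6, a subunit of the general transcription factor TFIID, had 5.21 and 3.84 in replicates 1 and 3 (chromosome 5, 138186983 to 138187476). It also reached the bases before the start of Cnpy4, on the opposite strand, without covering that start. Taf2, another TFIID subunit, had 4.39 and 4.05 in replicates 1 and 2 at its higher-coordinate end (chromosome 15, 55071845 to 55072429), for which the promoter table gave no strand. Lsm5, a subunit of the ring that binds U6 RNA in splicing, had 3.76 and 5.02 in replicates 2 and 3 (chromosome 6, 56704290 to 56704811). Its 2 summits lay 163 and 161 bp downstream of the start, nearly at the same base.

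Another 4 regions completed the 10 strongest at gene ends. Grp, the gene of gastrin-releasing peptide, had 4.10 and 5.02 in replicates 1 and 3 (chromosome 18, 65884837 to 65885611). Tent5c, a poly(A) polymerase gene, had 4.05 and 4.72 in replicates 2 and 3 at its far end (chromosome 3, 100468142 to 100468623). Folds were 3.98 and 4.03 at the far end of the gene model Gm13420 and 3.83 and 3.86 at Cst11, a cystatin gene, each in replicates 1 and 3 (chromosome 2, 29741424 to 29741900 and 148768872 to 148769363).

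The 10 strongest regions of 2 of 3 libraries, at gene ends or not, were led by a region within Btbd9, a BTB-domain gene, with 5.19 and 6.23 in replicates 2 and 3 and summits 9 bp apart (chromosome 17, 30369874 to 30370458). Cdh13, which encodes T-cadherin, had 5.94 and 5.16 within its body (chromosome 8, 119068043 to 119068671), and the potassium channel gene Kcnh6 had 5.40 and 5.02 (chromosome 11, 106020089 to 106020924), both in replicates 2 and 3. Of the rest, Lgals3 is described above, a region lay within Ttc6 (chromosome 12, 57724474 to 57724933; 4.59 and 4.43 in replicates 2 and 3), and 5 lay outside protein-coding genes. The nearest of those genes was 6.40 kb away (LOC100504180) and the farthest 856 kb (Dpp10). In 8 of these 10 regions the pair of libraries was replicates 2 and 3.

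Peaks in the recurrent regions reached gene ends more often than the other peaks of the same library, in all 3 LysM-Cre libraries. Counting a peak that came within 1 kb of an annotated end of a protein-coding gene, the windows took 66 of 1036 such peaks in replicate 1 (6.37%), 89 of 1282 in replicate 2 (6.94%) and 93 of 1114 in replicate 3 (8.35%). The other peaks of these libraries gave 3.47%, 3.20% and 4.11%. The means were 7.22 ± 1.02% and 3.6 ± 0.468% (SD, n = 3 libraries), and the share was 1.83 to 2.17 times as high in the recurrent regions. Each region has peaks in 2 or 3 of these libraries by the rule, so the 3 shares in recurrent regions are not independent. The difference of 3.62 percentage points gave an exact two-sided sign-flip permutation p = 0.25, the smallest that 3 libraries allow (0.375 adjusted over 6 comparisons), so the threshold could not be reached. Without LysM-Cre replicate 3 it was 1.76 points. Among peaks at an authors' q-value of 0.01 or less, from which 139 regions were built, it was 12.1 points.

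The excess was most marked next to transcription starts. This measure was added after the promoter table, which gives strand, had been seen. Summits within 250 bp of an annotated start made up 2.82%, 2.78% and 3.77% of the peaks in recurrent regions in replicates 1, 2 and 3. They made up 0.768%, 0.898% and 1.35% of the other peaks. Between 250 bp and 1 kb the shares were 2.01%, 2.21% and 2.45% against 1.31%, 1.25% and 1.64%. Between 1 and 5 kb they were 7.25%, 5.64% and 7.16% against 7.06%, 6.33% and 6.85%, and the groups overlapped. Chromosome 18 is not in the promoter table and was left out of these shares.

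**Figure D2:**
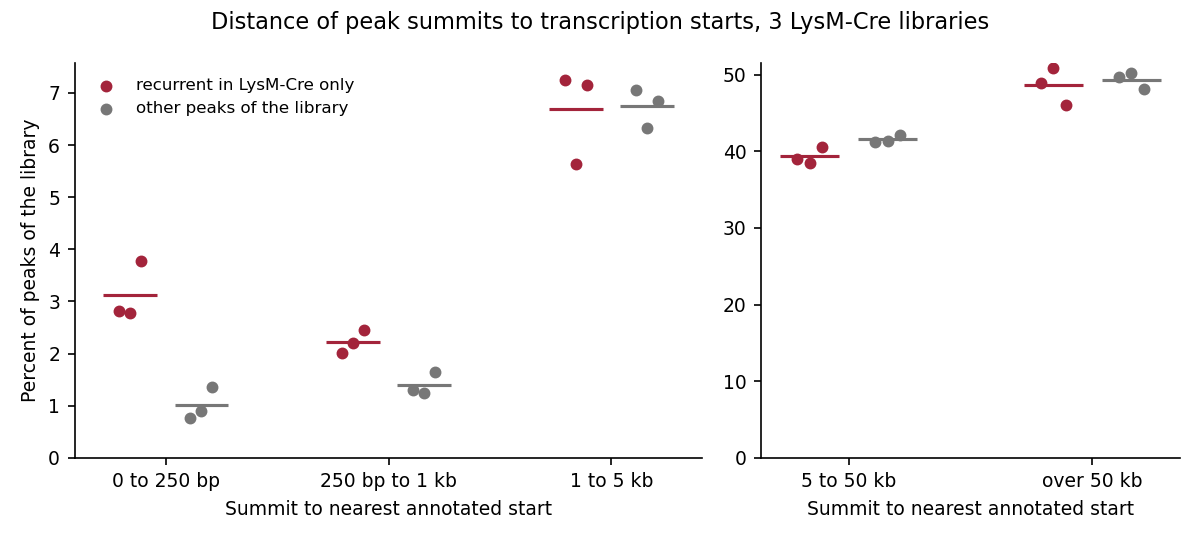
Percent of a library's peaks (vertical axis) by distance from the summit to the nearest annotated transcription start (horizontal axis, 5 bins), for peaks in regions recurrent in LysM-Cre only (red) and all other peaks of the same 3 LysM-Cre libraries (grey). Dots are libraries and bars their means. Red dots lie above every grey dot in both bins below 1 kb and overlap the grey dots at 1 to 5 kb and over 50 kb.

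Of 175 summits of recurrent regions within 1 kb of a start, 127 lay downstream of it or on it and 48 upstream. Summits were counted per library, so 1 region can count more than once and the positions are not independent. The median position was 157 bp downstream. The downstream share was 70.8%, 70.5% and 75.8% in replicates 1, 2 and 3, against 59.2%, 61.1% and 64.1% of the other peaks of these libraries near a start. In regions recurrent in Trem2-MKO only it was 75%, 63.2% and 62.5%, from 16 to 20 summits per library, and the values of the genotypes overlapped. These differences were not tested. Windows of 1 kb around starts took 5.57 ± 0.714% of the peaks in recurrent regions and 2.70 ± 0.435% of the others (SD, n = 3, difference 2.87 points, exact two-sided sign-flip permutation p = 0.25, adjusted 0.375). Regions recurrent in Trem2-MKO only gave 5.01 ± 0.702% (n = 3, difference 0.553 points, exact two-sided permutation p = 0.6, adjusted 0.72). In each Trem2-MKO library this share was above that of its other peaks, with 4.21% against 2.20%, 5.33% against 3.53% and 5.50% against 2.29%. Unlike the distance shares above, these window shares kept peaks of chromosome 18 in the base, where none could count as near a start.

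The share at gene ends was compared with that of regions recurrent in Trem2-MKO tumours only. In that set of 599 regions, built by the same rule with the genotypes exchanged, the share of peaks at gene ends was 6.01%, 7.26% and 9.06% in Trem2-MKO replicates 1, 2 and 3. The mean was 7.45 ± 1.53% against 7.22 ± 1.02% for the LysM-Cre set (n = 3 libraries each), and the values overlapped. The difference of -0.225 points (exact two-sided permutation p = 0.9, adjusted 0.9, smallest possible 0.1) had the opposite sign in 9 of 18 alternatives, which ranged from -6.05 to 6.24. Proximity to gene ends was thus not shown to differ between the genotypes, and these tests cannot show that it is alike.

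Over the gene bodies the excess depended on the peaks used. Peaks within protein-coding genes were 41.0%, 42.3% and 46.0% of those in recurrent regions in replicates 1, 2 and 3, and 40.9%, 40.2% and 41.6% of the others. The difference was 2.18 ± 2.14 points (SD, n = 3, exact two-sided sign-flip permutation p = 0.25, adjusted 0.375), and it turned to -2.55 without replicate 3. Among peaks at an authors' q-value of 0.01 or less it was 11.0 points, and with lists of equal length 5.98 points. The same share was 40.3 ± 0.381% for regions recurrent in Trem2-MKO only, below all 3 LysM-Cre values (difference 2.83 points, exact two-sided permutation p = 0.1, the smallest possible, adjusted 0.375). In Trem2-MKO replicates 1, 2 and 3 it was 40.7%, 40.0% and 40.1%, against 40.9%, 42.4% and 35.3% of their other peaks. Of the 1689 regions, 731 touched a protein-coding gene, 124 were within 1 kb of a gene end and 941 (55.7%) did neither.

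The more LysM-Cre libraries shared a region, the more often it reached a gene end. The share was 13.5% for 3 of 3 libraries (7 of 52), 7.15% for 2 of 3 (117 of 1637) and 3.54% for the 61779 regions of 1 LysM-Cre library and no Trem2-MKO library. Median lengths were 690.5, 654 and 416 bp, and a longer region reaches a window more easily; the part of length in this order was not tested. By pair of libraries, gene ends were reached by 4.70% of the 575 regions of replicates 1 and 2, 7.86% of the 407 of replicates 1 and 3, and 8.85% of the 655 of replicates 2 and 3.

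Most promoters overlapped by the recurrent regions were rich in CG dinucleotides, as the printed sequences show for Arpc2 in particular. The printed sequence of Fgg, whose start was overlapped too, held only 4. Promoter windows ran from 250 bases before to 50 after an annotated start, and 112 of the 141 genes with a region at an end were in the promoter table. Of 82 protein-coding windows overlapped by a recurrent region, 89.0% held 10 or more CG dinucleotides. This share was 73.2% in 559 windows overlapped by a peak of 1 LysM-Cre library alone and 57.9% in all 20055. Medians were 18.5, 18 and 14 per window. In the 17 windows overlapped by a region recurrent in Trem2-MKO only, the median was higher, 29, and the share with 10 or more was 70.6%. CG richness was thus not shown to be particular to the LysM-Cre regions. G and C made up a median of 59.3%, 59.7% and 57.0% of the bases in the first 3 sets and 58.7% in the last. Windows of 1 gene can overlap each other, and windows of neighbouring genes on opposite strands can share a region, so they are not independent and no test was made.

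**Figure D3:**
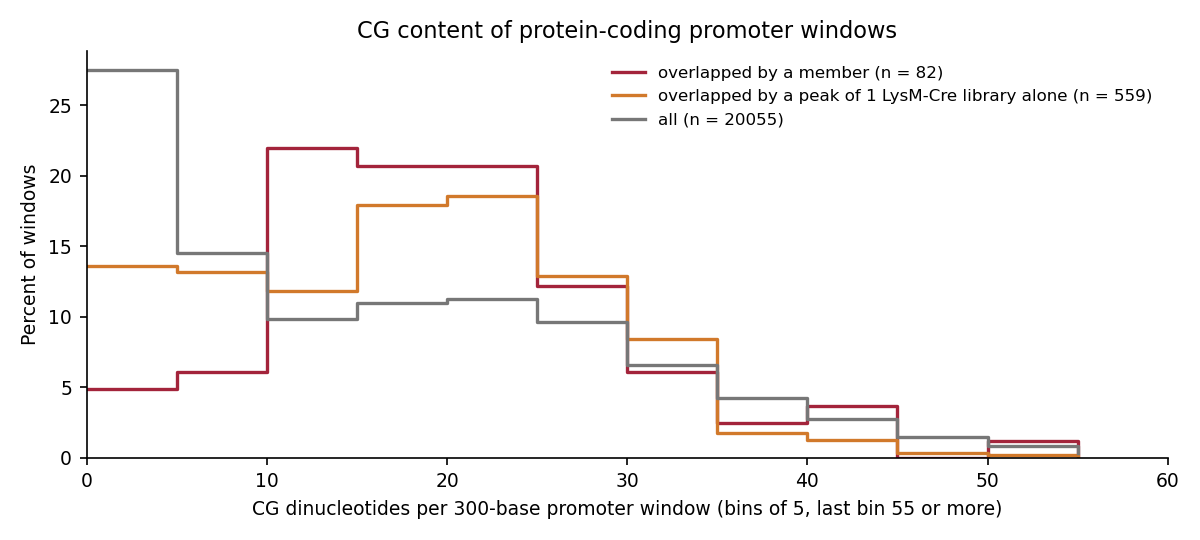
Number of CG dinucleotides per protein-coding promoter window (horizontal axis, bins of 5) and percent of windows (vertical axis) for the 82 windows overlapped by a region recurrent in LysM-Cre only (red), the 559 overlapped by a peak of 1 LysM-Cre library alone (orange) and all 20055 windows (grey). Windows with fewer than 5 were 4.88% of the red and 13.6% of the orange set.

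Short sequence motifs were counted in the same windows on both strands. TATAAA, the TATA box core, was in 11.0% of the windows overlapped by a recurrent region and 12.7% of all protein-coding windows. CCAAT was in 34.1% and 38.1%. GGGCGG, the GC box core bound by Sp1-family factors, was in 54.9% and 47.0%, and in 56.4% of windows overlapped by 1 LysM-Cre library alone. CCGGAA, a core of ETS-family sites, was in 30.5% and 19.1%, with 23.8% for 1 library alone. In the 17 windows of regions recurrent in Trem2-MKO only, TATAAA was in 17.6%, GGGCGG in 41.2% and CCGGAA in 11.8%, which are 3, 7 and 2 windows. TGACGTCA, the full cAMP response element, was in 2.44% and 2.30%. A match is only a run of letters, and GGGCGG and CCGGAA each contain a CG dinucleotide.

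Some recurrent regions overlapped promoter windows of genes on opposite strands. Of 69 recurrent regions over a promoter window, 11 (15.9%) overlapped windows of both strands, against 55 of 716 (7.68%) of the shorter regions of 1 LysM-Cre library. Besides Taf6 and Cnpy4, examples chosen after their values were seen were Mrps5, a mitochondrial ribosome gene, with Zfp661 (chromosome 2, 127586826 to 127587658; folds of 3.22 and 4.49 in replicates 1 and 3), and Polr3f, an RNA polymerase III subunit gene, with Dzank1 (chromosome 2, 144527573 to 144528264; 2.11 and 3.84 in replicates 2 and 3).

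The gene lists below were chosen with earlier results of these data known, and the proteasome, Arp2/3 and class III PI3-kinase lists because Psmd1, Arpc2 and Pik3r4 had been seen, so their counts support nothing. Over all 20665 protein-coding genes, 141 (0.682%) had a recurrent region within 1 kb of an end and 687 (3.32%) within the body. Of 302 list genes found, 6 (1.99%) had a region at an end and 28 (9.27%) in the body. Of the 28, 16 belonged to a list of long genes, many but not all of synapse and adhesion.

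Immune genes held single regions, and with lists this short the counts lie near the shares over all genes. None of 24 macrophage and monocyte genes had one at an end or in the body. Of 25 genes of the TREM2 pathway and of lipid-associated macrophages, Lgals3 had the region at its start and Vav1, a signalling adaptor of blood cells, had one in its body with folds of 3.22 and 2.66 in replicates 1 and 3 (chromosome 17, 57281443 to 57282167). Among 26 T cell, NK cell and checkpoint genes only Nr4a1, a nuclear receptor induced by antigen receptor signals, had a region, in its body (chromosome 15, 101272659 to 101273172; 2.96 and 3.38 in replicates 2 and 3). Of 9 B cell genes Cr2, a complement receptor, had one in its body (chromosome 1, 195140296 to 195140718; 3.76 and 3.54 in replicates 2 and 3), and 0 of 10 neutrophil genes had any.

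Liver and stromal lists gave single genes. Of 27 hepatocyte genes, Fgg, the fibrinogen gamma gene, had a region over its start with folds of 3.22 and 2.97 in replicates 1 and 2 (chromosome 3, 83007092 to 83007753), with summits -248 and -384 bp from the start and 10 fragments in each. Of 18 liver tumour genes, Prom1, the surface marker CD133, had a region in its body (chromosome 5, 44055660 to 44056136; 4.39 and 2.95 in replicates 1 and 3). Sox9, a transcription factor of bile duct and progenitor cells, had a region of 3 of 3 libraries in its body, with 3.06, 3.62 and 3.93 (chromosome 11, 112784412 to 112785253). It was the only gene of the 6 cholangiocyte genes with a region, and 0 of 10 endothelial and 0 of 10 stellate and fibroblast genes had any.

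Among genes of chromatin and of cell machinery, Ash1l, which encodes a methyltransferase of histone H3 lysine 36, had 2 regions in its body, with 3.51 and 3.25 in replicates 2 and 3 and 2.89 and 2.32 in replicates 1 and 3 (chromosome 3, 89008121 to 89009054 and 88973132 to 88973723). It was the only gene of 29 H3K36 and acetylation enzymes with any. Psmd1 was the only one of 31 proteasome genes and Pik3r4 the only one of 17 autophagy genes. Of 19 Arp2/3 and WAVE genes, Arpc2 and Wasf1 had a region at an end, the latter at its far end (chromosome 10, 40939031 to 40939743; 3.22 and 2.95 in replicates 1 and 3), and Arpc3 had one in its body (chromosome 5, 122397628 to 122398321; 2.70 and 4.43 in replicates 2 and 3). None of 18 ubiquitous genes had a region at an end or in the body, and 0 of 73 cytosolic ribosomal protein genes did. Both lists cover little gene body (0.176 and 0.267 Mb). At the density over all protein-coding genes, 0.743 regions per Mb of gene body, no region in a body would be the usual count. The share of 3.32% of all genes takes no account of gene length.

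Trem2 itself had a recurrent region beside it. The region began 1.13 kb beyond the higher-coordinate end of Trem2, which is the far end of this plus-strand gene (chromosome 17, gene 48346401 to 48352276, region 48353411 to 48354149). Folds were 2.93 in LysM-Cre replicate 1 and 3.78 in replicate 2, with 9 and 13 fragments at summits 296 bp apart, and the authors' −log10 q was 0.828 and 2.07. Replicate 3 had no peak there, and the nearest Trem2-MKO summit was 50.0 kb away. Whether the deleted part of the gene reaches this position is not given in the sources used here, so the region does not check the genotype. The nearest recurrent regions to Cd274, the gene of the PD-1 ligand PD-L1, and to Pdcd1 were 118 kb and 3260 kb away.

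Long genes took many of the regions in bodies, about in proportion to their length. Genes with a region in the body had a median length of 95.6 kb against 17.5 kb for all protein-coding genes. The list of 25 long genes, many but not all of synapse and adhesion, held 29 regions. That was 0.812 per Mb of gene body, against 0.743 per Mb over all protein-coding genes. The strongest were in Pcdh9 (chromosome 14, 93022347 to 93022755; 4.59 and 4.43 in replicates 2 and 3), Immp2l (chromosome 12, 41257405 to 41257853; 4.05 and 4.13 in replicates 2 and 3) and Cntnap2 (chromosome 6, 46365924 to 46366352; 3.80 and 4.13 in replicates 1 and 3).

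The most regions in a gene body were 4. They were found in Dpyd, which encodes the enzyme that breaks down pyrimidines (871 kb, chromosome 3), in Nrg1, the gene of the growth factor neuregulin 1 (1080.0 kb, chromosome 8), and in 3 overlapping gene models on chromosome 18 (Gm38667, Gm38666 and Gm37013) that share them. Neighbouring regions lay within 100 kb of each other in 140 groups with 306 regions, and 1383 stood alone. The largest group had 4 regions over 105 kb at Bcar3, an adaptor of integrin signalling (chromosome 3, 122427046 to 122532324), where the LysM-Cre lists had 14 peaks in all and the Trem2-MKO lists 6. A group of 3 within 20 kb lay at the amine oxidase genes Aoc2 and Aoc3 (chromosome 11, 101325322 to 101345284), with 6 LysM-Cre peaks and 0 Trem2-MKO peaks. Another group of 3 lay within 20.7 kb in a stretch of chromosome 3 without protein-coding genes (41828770 to 41849481), with 8 and 0 peaks.

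Chromosome 3 held more of the regions than any other, 313 of 1689 (18.5%), and 9 of the 52. It also held 10.3% to 16.9% of all peaks of a LysM-Cre library. Per 1000 regions with a LysM-Cre peak, 39.1 were recurrent in LysM-Cre only on chromosome 3 and 25.7 over all 19 chromosomes. Chromosomes 16, 10, 14 and 13 were lowest, with 12.8, 13.5, 16.2 and 18.5, and they also held few peaks. The part of peak density in these values was not tested. Of the chromosome 3 regions, 3.83% reached a gene end, against 7.34% of all. Without chromosome 3 the gene-end difference within libraries was 4.29 percentage points.

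**Figure D4:**
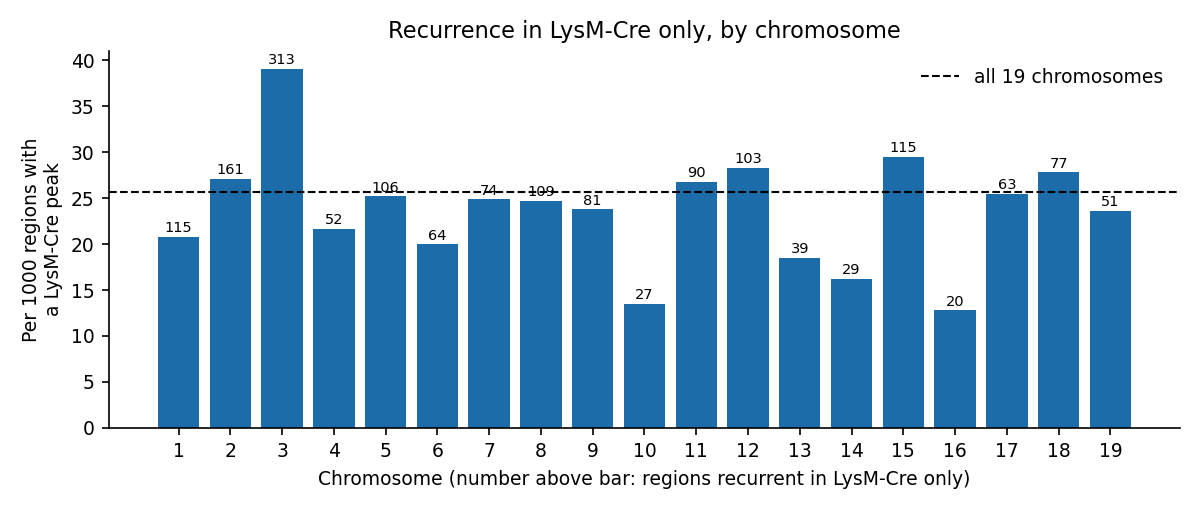
Regions recurrent in LysM-Cre only per 1000 union regions with a LysM-Cre peak (vertical axis) on chromosomes 1 to 19 (horizontal axis), with the number of regions above each bar and the value over all 19 chromosomes, 25.7, as a dashed line. Chromosome 3 stands highest at 39.1 and chromosome 16 lowest at 12.8.

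Recurrence rose with peak strength, as a description, since strength decides whether a peak is called. In replicates 1, 2 and 3, 5.70%, 4.31% and 5.62% of peaks lay in the recurrent regions. At an authors' −log10 p of 7 or more the shares were 9.25%, 10.3% and 9.86%, and between 2 and 4 they were 4.44%, 3.6% and 4.11%. Median folds of peaks in the regions were 3.32, 3.24 and 3.35, little above 3.22, 3.01 and 3.25 for the other peaks. A q-value of 0.01 or less was reached by 19.6%, 26% and 25% of the peaks in the regions and by 14.3%, 16.8% and 15.5% of the others. The median lower fold was 2.97 both in the regions at gene ends and in the rest. Folds rest on few fragments and many regions share a value, so this tie cannot show equal strength. The gene-end difference within libraries was larger among stronger peaks. It was 3.62 percentage points with all peaks, 9.38 with lists cut to equal length and 12.1 with q-values limited to 0.01. Whether regions at gene ends were stronger was not tested directly.

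**Figure D5:**
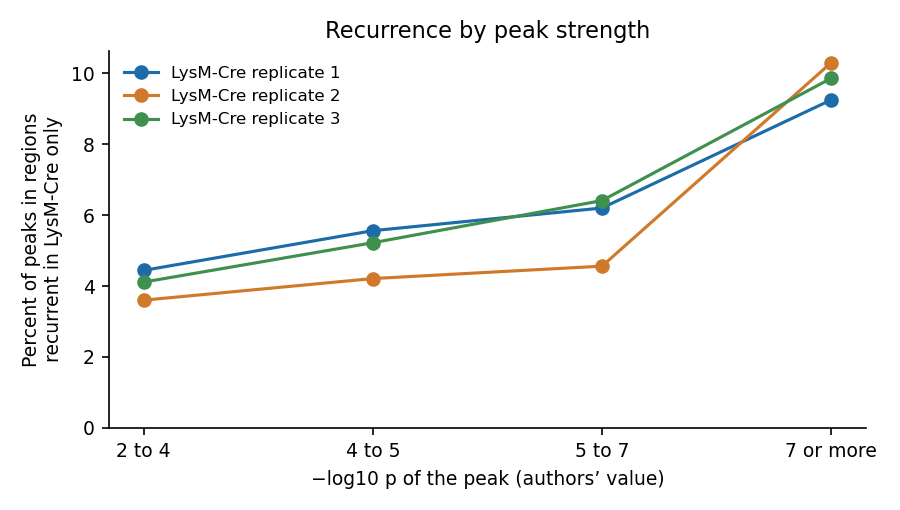
Percent of a library's peaks that lie in regions recurrent in LysM-Cre only (vertical axis) by the authors' −log10 p of the peak (horizontal axis, 4 bins), with a line for each LysM-Cre replicate. In all 3 libraries the share is lowest at 2 to 4 (3.6% to 4.44%) and highest at 7 or more (9.25% to 10.3%).

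Peaks of different libraries often overlapped without sharing a summit. The 1789 overlapping pairs of peaks had a median overlap of 317 bp, and 73.6% shared at least 0.5 of the shorter peak. The median distance between summits was 157 bp, with 35.2% within 100 bp and 68.5% within 250 bp. At gene ends the median was 107.5 bp and elsewhere 162 bp. In the 52 regions of 3 of 3 libraries the summits spanned 8 to 825 bp (median 170 bp), and 46 of the 52 had all 3 peaks overlapping each other. Just inside the rule, 15 regions rested on an overlap of 10 bp or less, and just outside it, 14 neighbouring pairs of LysM-Cre regions from different libraries had a gap of 10 bp or less.

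Most regions with a LysM-Cre peak had no Trem2-MKO peak, recurrent or not. Of 63950 regions with a peak of 1 LysM-Cre library, 3.39% also had a Trem2-MKO peak. The share was 8.29% of 1785 regions with peaks of 2 LysM-Cre libraries and 13.3% (8) of 60 with peaks of 3, where regions were longer. Of the 1845 regions recurrent in LysM-Cre, 156 were thus left out by the rule: Trem2-MKO replicate 1 had a peak in 90, replicate 2 in 39 and replicate 3 in 43. These lists differed in length, with 29906, 6840 and 4638 peaks, against 18262 to 29970 in LysM-Cre, and the part of list length in the rule's outcome was not tested beyond the equal lists that follow. With lists of equal length, 4627 peaks each, 186 regions met the rule and 12 of them in 3 of 3. A Trem2-MKO peak lay within 1 kb of 60 of the 1689 regions and within 5 kb of 285.

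The depth behind each peak was small. The median summit in the recurrent regions held 11, 12 and 11 fragments, over a lowest local background of 2.42, 2.70 and 2.39 fragments in replicates 1, 2 and 3. Names of the lists state a pooled control, and where the libraries of a genotype share their control, genotype and control cannot be told apart. The background was the lowest of the library, with no local excess of control, at 60.1%, 59.4% and 57.3% of peaks in the recurrent regions and at 65.5%, 68.0% and 57.8% of the others. From such peaks alone, 857 regions met the rule, 13 in 3 of 3 libraries, and the gene-end difference was 1.98 percentage points (exact two-sided sign-flip permutation p = 0.25, n = 3). The labelled tissue could not be checked, since 0 of 7 hepatocyte markers had a gene-end peak in any of the 6 libraries, and markers of other cell types had 0 to 2 per library.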

How the data were processed

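H3K36ac peak lists of 6 liver tumour libraries (3 LysM-Cre, 3 Trem2-MKO) were analysed. Per the labels' protocols, fixed chromatin was sheared, immunoprecipitated and passed through whole-genome amplification, which can copy fragments unevenly; its effect was not tested. The build was mm10 and the software MACS2, Bowtie2, Trimmomatic, Picard, SAMtools and deepTools, per the submitters' processing notes, with versions and roles not given in the sources used here. File names of the deposited lists state removal of duplicates, a pooled control, a p-value limit of 0.01 and a cap of 500000 peaks, with peaks called per library. The deposited lists give per peak the summit position, a score, a fold ratio over local background and, as −log10, the p-value and the q-value. The deposited score is 10 times the −log10 p and was not used.

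Read totals were not used here. Fragments at each summit were recovered as the whole number that returned the fold and the p-value of the peak under a Poisson background, within 4.43e-05 on the −log10 scale in the LysM-Cre libraries. Fragment numbers of Trem2-MKO replicates 2 and 3, the shortest lists, are not given here. Intervals were merged and annotated with pandas 2.3.3 and NumPy 2.4.6 in Python 3.11.15; the steps were tested on simulated data. Genes came from RefSeq (GRCm38.p6), with 79.6% of 20665 protein-coding genes in the promoter table. Shares were compared over libraries by exact permutation of 20 assignments or by 8 sign flips. The labels count 3 mice per genotype without tying each library to a mouse, so p-values measure only the spread between libraries. By the rule, the libraries of a set share its regions, so their shares are not independent and this spread is narrowed by the choice. The members and gene lists were chosen with earlier results of these data known. Named regions were the 10 strongest of each class by lowest fold, those of 3 of 3 libraries at a gene end, list genes, and the genes and groups with most regions; a few that met this rule are not reported here. Alternatives changed the peak threshold, list length, overlap, windows and libraries.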

Additional observations from a re-analysis of the deposited data

How the results depend on the processing

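The larger share of gene-end peaks in recurrent regions than in other peaks of the same library kept its direction in 18 of 18 alternatives, from 1.76 to 12.1 percentage points, with exact p-values of 0.25 to 0.5; leaving out a library gave 1.76 to 5.35. The share within genes turned in 1 of 14 alternatives; leaving out a library gave -2.55 to 5.41 points, and a −log10 q of 2 or more gave 11.0. The difference in gene-end share from regions recurrent in Trem2-MKO only changed sign at a −log10 q of 2 or more (1.44 points), with lists of equal length (6.24), with an overlap of at least 0.5 of the shorter peak (0.0332), with windows of 2.5 kb (1.64), with windows at transcription starts (0.553) and without chromosome 3 (0.325), and ran from -6.05 to 1.74 without 1 library; the last 2 settings and the one on lowest background were added after seeing the data. With the replicate number as a block it was -0.225 points (exact p = 0.75). Deviations of same-numbered libraries in the share of peaks per chromosome correlated at -0.298, -0.961 and -0.940 over 19 chromosomes. These shares do not record how the libraries were made, so they cannot decide whether the numbers pair them. The count of 1689 regions and the 52 of 3 of 3 libraries became 445 and 13 with peaks of −log10 p from 5 upwards, 139 and 11 at a −log10 q of 2 or more, 186 and 12 with equal lists and 857 and 13 with LysM-Cre peaks at the lowest background, where fewer peaks entered. Without 1 library, where 2 of 2 LysM-Cre or 0 of 2 Trem2-MKO libraries were asked for, the regions numbered 457 to 1767 and those of 3 of 3 libraries 53 to 56; the latter are not defined without a LysM-Cre library. Depth limits all of these, with a median of 11 fragments at a LysM-Cre summit.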

Other observations

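Outside chromosomes 1 to 19, 2 of 662 union regions on chromosome X had peaks in at least 2 LysM-Cre and 0 Trem2-MKO libraries. The microRNA gene Mir7065 was the only annotated hairpin overlapped by a recurrent region (chromosome 8, 13136072 to 13136132). Of 78 mitochondrial ribosomal protein genes, a family looked at after the data were seen, 3 (3.85%) had a recurrent region at an end, against 0.682% of all protein-coding genes. Of 1104 olfactory receptor genes 1 did, and of 388 zinc-finger genes with a Zfp symbol 5 did (1.29%).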
